A study of Mus musculus with 6 samples.

Results

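Cx3cr1 and Spn were followed together with Nr4a1, Ace, Treml4, Cd300e, Pou2f2 and Eno3, 8 genes known from the non-classical monocyte of the mouse, in RNA of sorted peritoneal macrophages. The members were found by gene symbol, and all 8 were present among the 15469 genes of the deposited table. They were assembled with the contrast described here already known, because Cx3cr1 and Spn stood out in it. The differences of these 8 genes between the groups are therefore given as a description, with no test of their own. Calls of these genes in the fits over all genes are listed, with nothing read from them. There were 3 libraries labelled KO, from macrophages described as deleted for PU.1, and 3 control libraries labelled WT. All 6 came from CAIA mice, a name that the labels give only as an abbreviation. The cells were sorted for RELM-α, a resistin-like protein made by alternatively activated macrophages, and then plated. Strain, age, the means of deletion and the origin of the replicates (separate animals, cultures or aliquots) are not stated in the labels. Errors and p-values therefore reflect the spread among these 6 samples, part of which may be technical.

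Non-classical monocytes, also called patrolling or Ly6C-low monocytes, crawl along the inner wall of small vessels and take up particles and dying endothelial cells. They arise largely from classical, Ly6C-high monocytes, a step that needs the nuclear receptor NR4A1, and they carry much CX3CR1, the receptor for the chemokine fractalkine, and CD43, the sialomucin encoded by Spn. Large resident macrophages of the peritoneal cavity are known to carry little CX3CR1.

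The libraries held 17280855 to 18632623 counts each. Transcripts of Spi1, which encodes PU.1, were present in the KO-labelled libraries (294 ± 22.6 CPM, against 315.8 ± 29 CPM in the WT-labelled libraries; edgeR adjusted p = 0.561; SD, n = 3 each), so every direction given here is a direction between the labels. CPM scales the counts of each gene to the size of its library. Counts per gene do not show whether part of the transcript was removed. The 4 Y-linked genes Ddx3y, Eif2s3y, Uty and Kdm5d summed to 0.0513 to 0.44 CPM in the KO libraries and 125 to 171.4 CPM in the WT libraries, so the sex of the cells and the label cannot be told apart. KO replicate 1 stood apart, with Pearson's r over log2 CPM of genes of 0.902 and 0.922 with KO replicates 2 and 3, and 0.955 to 0.959 with the WT libraries. All 8 macrophage markers, among them Csf1r, Adgre1, Cd68 and Lyz2, were present. Their sum was 19919, 44710.5 and 43068.1 CPM in KO replicates 1, 2 and 3, and 35452.5 to 39818.2 CPM in the WT libraries. KO replicate 1 was the lowest library for 5 of the 8 and the highest for 1, against 2370 and 2367 of 11518 genes with at least 1 CPM in any library.

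Cx3cr1 and Spn were low in every WT library and more than 10 times the highest WT library in every KO library. Cd300e and Pou2f2 were also higher in every KO library, by less, while Treml4, Ace and Eno3 showed small or inconsistent differences. Nr4a1, the regulator of the lineage, was above the WT libraries in KO replicate 1 and below them in KO replicates 2 and 3. The 8 genes did not move together.

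**Figure D1:**
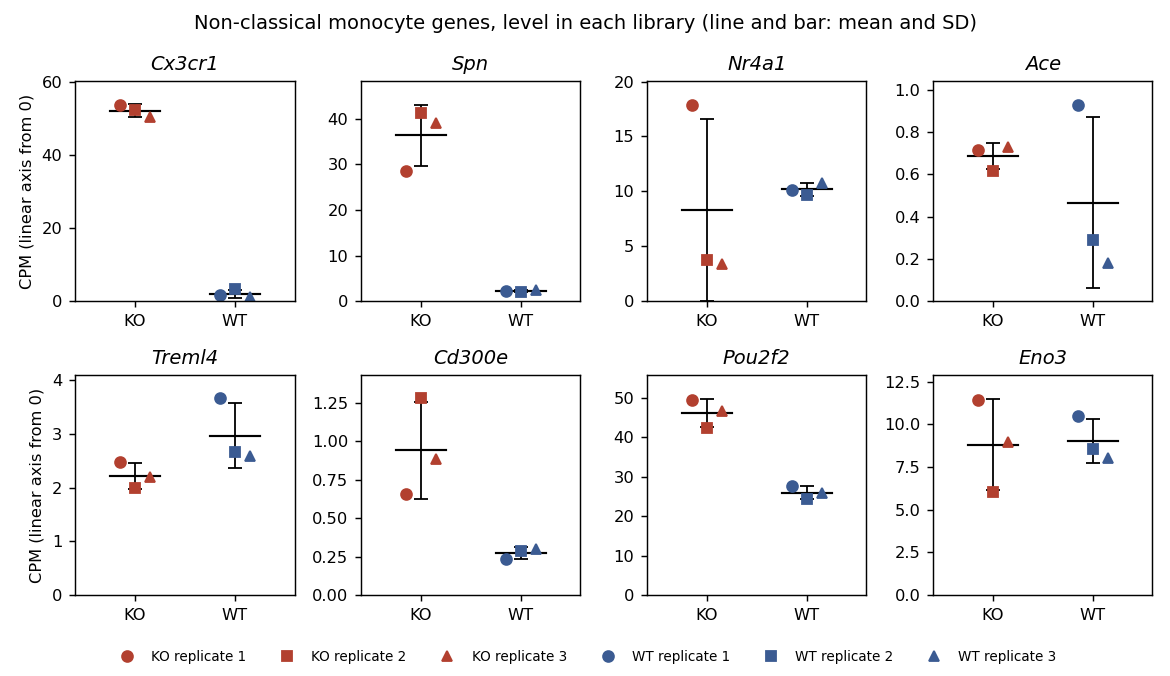
Level of each of the 8 genes in CPM (linear axis from 0), with the 3 KO libraries left of the 3 WT libraries in each panel; symbols are libraries, the line is the mean and the bar the SD. Cx3cr1, Spn, Cd300e and Pou2f2 are higher in every KO library and Treml4 is lower in each, and for Nr4a1 KO replicate 1 lies at 17.9 CPM while KO replicates 2 and 3 lie at 3.75 and 3.39 CPM.

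Cx3cr1 (chromosome 9, 120048683 to 120068296, minus strand, GRCm38), the G protein-coupled receptor for fractalkine, reached 53.7, 52.4 and 50.3 CPM in KO replicates 1, 2 and 3, against 1.8, 3.29 and 1.14 CPM across the WT replicates. The KO libraries were almost equal, and the highest WT library, replicate 2, stood far below all of them. The means were 52.1 ± 1.7 and 2.08 ± 1.1 CPM in the KO and WT libraries (SD, n = 3 each), or 25.1-fold, and the log2 difference was 4.64 (SE 0.386). The WT counts were 31, 57 and 19 reads, so the fold rests on few reads in the denominator; the ratio of group totals was 24.9, with an exact 95% binomial interval of 20.5 to 30.5 that covers counting error only. Reads of PCR-amplified libraries without molecular identifiers are not independent molecules.

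Spn (chromosome 7, 127123637 to 127145552, minus strand) encodes CD43, a long, heavily glycosylated surface protein of leukocytes. It reached 28.6, 41.3 and 39 CPM in KO replicates 1, 2 and 3, against 2.21, 1.96 and 2.4 CPM across the WT replicates. Within the KO group replicate 1 was lowest, yet all 3 lay far above the WT libraries, which hardly differed among themselves. The means were 36.3 ± 6.75 and 2.19 ± 0.22 CPM in KO and WT libraries, or 16.6-fold, and the log2 difference was 4.05 (SE 0.197). As for Cx3cr1, the fold rests on few WT reads, with counts of 38, 34 and 40. The ratio of group totals was 16.7 (counting interval 13.8 to 20.3).

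Cd300e (chromosome 11, 115051917 to 115066676), an activating receptor of the CD300 family of myeloid cells, was near the limit of detection. It had 12, 25 and 17 counts in KO replicates 1, 2 and 3, and 4, 5 and 5 counts in the WT replicates. Every KO library was above every WT library. The log2 difference was 1.76 (SE 0.385), and the ratio of group totals was 3.47 (counting interval 1.9 to 6.77). Cd300e entered the fit only through the KO libraries, since none of the WT libraries reached the 0.554 CPM that the filter on low counts asks for in 3 libraries.

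Treml4 (chromosome 17, 48264200 to 48275607), a receptor of the TREM-like family that binds dying cells, was at 2.48, 2 and 2.19 CPM in the KO replicates and at 3.66, 2.66 and 2.58 CPM in the WT replicates. The highest KO library lay just below the lowest WT library, and the log2 difference was -0.42 (SE 0.24). Ace (chromosome 11, 105967948 to 105989964), the peptidase that makes angiotensin II, had 13, 12 and 14 counts in the KO replicates and 16, 5 and 3 counts in the WT replicates. Its groups overlapped, since WT replicate 1 was above all other libraries, and the log2 difference of 0.55 (SE 0.603) became 1.49 without WT replicate 1, 0.26 without WT replicate 2 and 0.17 without WT replicate 3. Ace reached the filter in all 3 KO libraries but in 1 WT library.

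Nr4a1 (chromosome 15, 101253902 to 101274795), an orphan nuclear receptor that is needed for Ly6C-low monocytes and is also an immediate early gene of many stimuli, had the widest spread of the 8. It reached 17.9, 3.75 and 3.39 CPM in KO replicates 1, 2 and 3, against 10.1, 9.65 and 10.8 CPM across the WT replicates. KO replicate 1 was 5.01 times the mean of the other KO libraries. The log2 difference over all 6 libraries was -0.29 (SE 0.678). It was -1.49 without KO replicate 1, and 0.04 and 0.06 without KO replicates 2 and 3, so no direction can be given for Nr4a1 from the groups as labelled.

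Pou2f2 (chromosome 7, 25087350 to 25180797), which encodes the octamer-binding factor OCT2 of B cells and myeloid cells, was at 49.5, 42.4 and 46.7 CPM in the KO replicates and at 27.6, 24.4 and 25.9 CPM in the WT replicates. The groups did not overlap, and KO replicate 1 was the highest. The fold was 1.78 in CPM (log2 difference 0.83, SE 0.104) and 2.28 in the authors' TPM, a scale per transcript length. Eno3 (chromosome 11, 70653125 to 70662513), the enolase best known from muscle, was at 11.4, 6.06 and 8.97 CPM in the KO replicates and at 10.5, 8.55 and 8.05 CPM in the WT replicates. Its groups overlapped and its log2 difference was -0.03 (SE 0.262). The range of Eno3 overlaps that of the abundant actin-binding gene Pfn1 (531.9 ± 33.6 CPM in KO and 634.8 ± 71.1 CPM in WT libraries), and how shared reads were assigned is not stated in the labels. The same limit holds for Cx3cr1, which overlaps Gm33858, Ace (Gm11651), Treml4 (Gm52308) and Pou2f2 (Mir6537 and D930028M14Rik).

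In the fit over all 11424 genes that passed the filter, 3.32% of genes were called at an adjusted p under 0.05 (379 genes, of which 258, or 2.26%, were higher and 121, or 1.06%, lower in the KO libraries; edgeR quasi-likelihood test with Benjamini-Hochberg adjustment). With GC content and transcript length corrected for, 309 were higher and 259 lower (5.07% of genes called). Over all genes, 10.8% were called by DESeq2, 3.11% by limma-voom, 3.34% with upper-quartile factors, 1.9% without a filter and 2.77% among genes of at least 10 CPM. All 8 members passed the filter, and Cx3cr1, Spn and Pou2f2 were among the called genes, a count from which nothing is read because the contrast chose the members. With single libraries left out, Spn was called in all 6 fits, Cx3cr1 without KO replicate 1 and without WT replicate 2 but in none of the other 4, and Pou2f2 only without KO replicate 1. Of the fits with 1 library left out, Cd300e (higher) and Nr4a1 (lower) were called in that one alone. With the GC and length correction added to it, Treml4 (lower) was called as well. Nothing is read from these calls either, since the contrast chose the members and Cd300e entered the fit only through the KO libraries. The fits with 1 library left out called 49.6% of all tested genes without KO replicate 1. They called 0.13% and 0.0952% without KO replicates 2 and 3, and 0.119%, 0.0427% and 0.0598% without WT replicates 1, 2 and 3. Groups that do not overlap in CPM were common, with 18.4% of all tested genes higher and 12.6% lower in every KO library (31% in all). Among the members 4 were higher and 1, Treml4, was lower in this way. In the authors' TPM the groups of Treml4 overlapped, with KO replicate 1 at 2.93 and WT replicates 2 and 3 at 2.65 and 2.71.

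**Figure D2:**
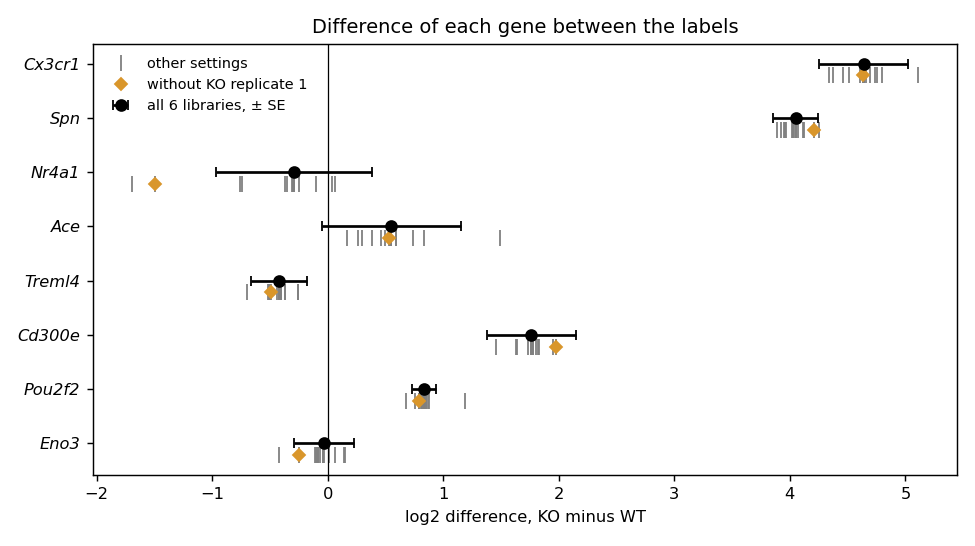
Log2 difference (KO minus WT) of each gene over all 6 libraries with its standard error, with the values under the other settings as grey ticks and without KO replicate 1 as diamonds. Spn ranged from 3.92 to 4.21 and Cx3cr1 from 4.34 to 5.11 when single libraries were left out, while Nr4a1 ranged from -1.49 to 0.06.

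Per transcript length, in the authors' TPM, the order of the 8 genes differed between the groups. In the KO libraries Cx3cr1 was highest at 25.3 ± 2.09 TPM, followed by Spn at 17.9 ± 2.9, Pou2f2 at 12.9 ± 1.78, Nr4a1 at 6.3 ± 6.64, Eno3 at 4.66 ± 1.78, Treml4 at 2.45 ± 0.445, Cd300e at 0.85 ± 0.19 and Ace at 0.24 ± 0.03 (SD, n = 3). Of these neighbours, Spn and Pou2f2, Pou2f2 and Nr4a1, and Nr4a1 and Eno3 overlapped between libraries. In the WT libraries the order was Nr4a1 at 6.77 ± 0.668 TPM, Pou2f2 at 5.64 ± 0.543, Eno3 at 4.22 ± 0.242, Treml4 at 2.95 ± 0.463, Spn at 0.94 ± 0.132, Cx3cr1 at 0.907 ± 0.435, Cd300e at 0.243 ± 0.0404 and Ace at 0.17 ± 0.104. There Spn and Cx3cr1 overlapped, and so did Cd300e and Ace. The mean TPM of Cx3cr1 exceeded that of 72.1% of all genes in the table in the KO libraries and of 31.8% in the WT libraries, and that of Spn exceeded 65% and 32%.

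The promoter windows of the 4 genes that were higher in every KO library are shown because PU.1 binds DNA and these genes can be compared there. Each holds 250 bases before and 50 bases after a transcript start annotated by RefSeq on GRCm38.p6, written 5′ to 3′ on the strand of the gene. Capitals mark the letters AGGAAG, a core bound by PU.1 and other ETS factors, and TGTGGT, a core bound by RUNX factors, on either strand (CTTCCT and ACCACA on the other). The start used for Cx3cr1 is the outer end of the gene's range, whereas those for Spn, Cd300e and Pou2f2 lie 7729, 4637 and 48337 bases inside it, so the sequence before the outermost start of these 3 genes is not shown.
Cx3cr1 promoter window, chr9:120068247-120068546, minus strand: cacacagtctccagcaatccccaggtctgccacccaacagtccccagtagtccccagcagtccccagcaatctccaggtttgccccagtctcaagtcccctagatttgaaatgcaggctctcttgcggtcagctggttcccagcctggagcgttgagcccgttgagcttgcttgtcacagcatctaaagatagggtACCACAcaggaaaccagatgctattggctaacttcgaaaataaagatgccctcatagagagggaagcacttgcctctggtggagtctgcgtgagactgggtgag
Spn promoter window, chr7:127137774-127138073, minus strand: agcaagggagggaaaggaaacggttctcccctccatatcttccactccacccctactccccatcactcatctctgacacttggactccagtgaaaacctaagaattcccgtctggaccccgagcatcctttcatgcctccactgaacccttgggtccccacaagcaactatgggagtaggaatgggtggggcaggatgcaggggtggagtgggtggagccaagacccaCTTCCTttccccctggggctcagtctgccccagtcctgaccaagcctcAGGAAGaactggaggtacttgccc
Cd300e promoter window, chr11:115061990-115062289, minus strand: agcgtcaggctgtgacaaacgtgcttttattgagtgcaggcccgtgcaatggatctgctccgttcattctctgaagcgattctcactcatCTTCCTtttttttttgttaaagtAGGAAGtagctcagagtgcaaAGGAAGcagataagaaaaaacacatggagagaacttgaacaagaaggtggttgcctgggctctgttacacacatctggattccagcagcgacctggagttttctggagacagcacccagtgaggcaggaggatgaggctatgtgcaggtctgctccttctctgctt
Pou2f2 promoter window, chr7:25132411-25132710, minus strand: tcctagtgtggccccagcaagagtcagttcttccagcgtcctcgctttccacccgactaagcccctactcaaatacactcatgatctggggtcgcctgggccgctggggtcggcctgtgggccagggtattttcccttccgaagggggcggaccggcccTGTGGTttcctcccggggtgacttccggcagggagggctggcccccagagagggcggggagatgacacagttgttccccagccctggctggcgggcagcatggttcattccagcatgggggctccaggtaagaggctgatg

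The windows of the genes with the largest differences did not share a match. AGGAAG was found in the Spn window 22 bases upstream and 26 bases downstream of the start, and in the Cd300e window 160, 137 and 116 bases upstream, and was not found in the windows of Cx3cr1 and Pou2f2. Of all 32851 windows of this length, 35.4% held it. TGTGGT was found in the window of Cx3cr1, 54 bases upstream, and in that of Pou2f2, 91 bases upstream, against 16.8% of all windows. Among the members that were not higher in every KO library, Treml4 held AGGAAG on the other strand 23 bases upstream, and Ace at 218 and 88 bases upstream in the first of its 2 windows. The NR4A site AAAGGTCA (1.51% of all windows), the octamer ATGCAAAT of POU2 factors (1.74%) and the C/EBP half-site pair TTGCNNAA (10.8%) were searched on both strands and found in none of the windows of the 8 genes. A match is only a match of letters, and none says only that these letters are not in this window. The windows differed in base composition, with 35 CpG pairs in that of Nr4a1 and 29 in the first of Ace, against 2 to 13 in the other members. The windows of Nr4a1 and Eno3 also start inside the gene's range, by 12944 and 4051 bases.

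Cx3cr1 had nearly the same level in all 3 KO libraries, while for most genes that separated KO replicates 2 and 3 from WT, KO replicate 1 lay elsewhere. Of 10988 genes averaging at least 1 CPM, 2173 (19.8%) were those whose log2 CPM differed by at least 1 between the mean of KO replicates 2 and 3 and that of the WT libraries. The place of KO replicate 1 on the way from WT (0) to KO replicates 2 and 3 (1) had a median of -0.01 over these genes and of 0.34 over the 628 that were higher. Cx3cr1 had 1.01 and Spn 0.88, above 84.6% and 80.3% of the 628 higher genes. Cd300e, whose mean lies below 1 CPM, had 0.62, and Nr4a1, on the opposite side of WT, had -0.55. A gene that is noted for a difference between the 3 KO and the 3 WT libraries will tend to have KO replicate 1 on the KO side, so the place of Cx3cr1 and Spn is a description.

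**Figure D3:**
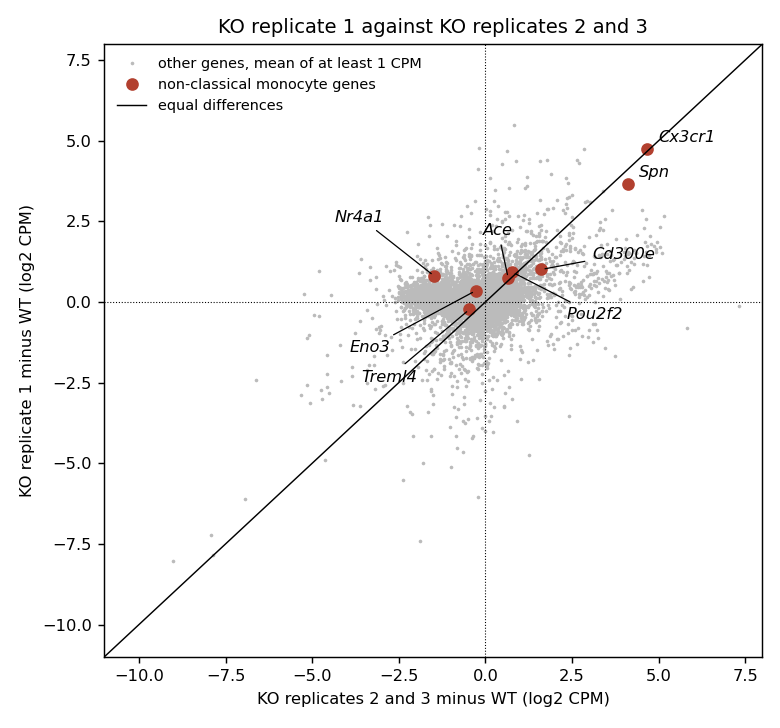
Difference from the WT mean in log2 CPM for KO replicates 2 and 3 (horizontal) and KO replicate 1 (vertical), for all genes averaging at least 1 CPM in grey and the 8 genes in red; the diagonal marks equal differences. Cx3cr1 lies on the diagonal, Spn just below it, and Nr4a1 at -1.48 and 0.81, on opposite sides of WT.

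Further genes of Ly6C-low monocytes, 23 chosen with earlier results of these data known, were mostly not higher in the KO libraries. Of the 19 tested, 1 rose, 2 fell and 16 did not pass the test, while 2.26% of all genes rose and 1.06% fell. The median log2 difference was -0.49, against -0.01 over all 11424 genes. Without KO replicate 1, where 49.6% of all genes were called, 3 were higher and 11 lower. Itgal, the alpha chain of the integrin LFA-1 that patrolling cells use to crawl, rose 2.35-fold, to 140.1 ± 26.8 CPM in KO libraries against 59.5 ± 0.571 CPM in WT libraries (edgeR adjusted p = 0.0217). Fabp4, a fatty acid binding protein, fell to 88 ± 9.72 CPM in KO libraries against 280.5 ± 15.6 CPM in WT libraries (adjusted p = 0.00634), and Gngt2, a G protein gamma subunit, to 50.2 ± 3.24 against 85.8 ± 10.4 CPM (adjusted p = 0.0364; not called with upper-quartile factors). With the correction for GC content and length Fabp4 was not called, and its log2 difference moved to -0.74, against -1.67 without the correction.

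Among surface markers of the lineage, Fcgr4, Itgax, Cd36 and Ceacam1 were not called by edgeR over all 6 libraries as counted. Fcgr4, the Fc receptor by which Ly6C-low monocytes of the mouse are often gated, was at 55.4 ± 24.4 CPM in KO and 93.9 ± 10.2 CPM in WT libraries. Itgax, which encodes CD11c, was at 211.1 ± 123.1 CPM in KO and 428.6 ± 111.7 CPM in WT libraries, and Cd36, a scavenger receptor, at 378.1 ± 215.4 CPM in KO and 1407 ± 294.8 CPM in WT libraries. Ceacam1 was at 30.5 ± 3.84 and 27.1 ± 2.46 CPM, and Adgre4, too low to be tested, at 0.826, 0.359 and 0.365 CPM in the KO replicates against 0.0582, 0.173 and 0.0601 CPM in the WT replicates. These 5 genes were picked from the list after their values were seen. For Fcgr4, Itgax and Cd36 every KO library was below every WT library, as it was for 12.6% of all tested genes. For Adgre4 every KO library was above every WT library, the side of Cx3cr1 and Spn and of 18.4% of all tested genes. The groups of Ceacam1 overlapped. Cd36 was called with the correction for GC content and length (log2 difference -1.16, adjusted p = 0.00895), by DESeq2, and without KO replicate 1 (-2.43, adjusted p = 0.000564). Fcgr4 was called without KO replicate 1 (-0.43, edgeR adjusted p = 0.0182). Itgax was called only with the GC and length correction without KO replicate 1 (-0.81, edgeR adjusted p = 0.00771), a fit that called 5794 genes.

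Of 16 tested regulators of the conversion and survival of Ly6C-low monocytes, 3 rose and 1 fell (median log2 difference 0.02), against 2.26% and 1.06% of all genes. In the fit without KO replicate 1, which called 49.6% of all genes, 5 were higher and 2 lower. Rbpj, the DNA-binding partner of Notch, rose 2.02-fold, at 180.6, 192.7 and 190.3 CPM in the KO replicates and 89.9, 80.9 and 107.9 CPM in the WT replicates (edgeR adjusted p = 0.0216). Notch2, the receptor whose signal favours the Ly6C-low fate, rose 1.52-fold, at 220.3, 226.3 and 220.2 against 131.7, 139.4 and 166.7 CPM (adjusted p = 0.0464). It was not called without a filter on low counts, and is named here after its values were seen. Csf1r, the receptor for the growth factor that these cells need, rose 1.72-fold (adjusted p = 0.0208), and Cebpa, a myeloid factor, fell to a fold of 0.599 (adjusted p = 0.0418; not called with upper-quartile factors, without a filter or over genes of at least 10 CPM). The Notch target Hes1, likewise chosen, was too low to be tested, at 0.296 ± 0.124 CPM in KO and 0.41 ± 0.199 CPM in WT libraries.

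Klf2 and Cebpb, transcription factors with known roles in Ly6C-low monocytes, were not called over all 6 libraries. Klf2 reached 37, 12.6 and 13.8 CPM in KO replicates 1, 2 and 3, against 8.9, 8.95 and 8.53 CPM across the WT replicates (edgeR adjusted p = 0.177). All KO libraries were above WT, KO replicate 1 by far the most, and without it Klf2 was called at a log2 difference of 0.6 (adjusted p = 0.00451), against 1.26 with it. Cebpb was at 97.4 ± 25.2 CPM in KO and 124.9 ± 21.3 CPM in WT libraries. It was called only with the GC and length correction without KO replicate 1 (-0.64, edgeR adjusted p = 0.00212). The paralogs Nr4a2 and Nr4a3 did not exceed 0.881 CPM in any library. These 4 genes were also chosen after their values were seen.

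Many, but not all, genes of classical, Ly6C-high monocytes were high in KO replicate 1, which was the highest library for 11 and the lowest for 2 of the 19 with at least 1 CPM in any library. Ly6c2, which gives these cells their name, reached 20.1, 0.103 and 0.0521 CPM in KO replicates 1, 2 and 3, against 0.174, 0.751 and 0.18 CPM across the WT replicates. Ccr2, the receptor by which they leave the marrow, was at 64.1, 1.54 and 2.5 CPM in the KO replicates against 1.8, 2.43 and 2.58 CPM in the WT replicates. Ly6c2, Ccr2 and Fn1 were chosen after their values were seen. Fn1, which encodes fibronectin, ran the other way, at 3.14, 62 and 69.4 CPM in the KO replicates against 8.72, 7.28 and 6.73 CPM in the WT replicates. Of the same 19 genes, KO replicate 1 was more than 2 times the next highest library for 9 (among them Ly6c2, Ccr2, Vcan, Hp, Plac8, Ms4a4c, Mmp8 and Cd177), 47.4% against 1.61% of all 11518 such genes. None of the 7 members with at least 1 CPM in any library met that mark. KO replicate 1 was the highest library for 4 of these 7 (57.1%), against 57.9% of the 19 classical genes and 20.6% of all such genes. Cx3cr1 and Spn were chosen for standing out between the groups, which makes the mark hard for them to meet. The part of classical monocyte transcripts in the levels of the 8 genes was not tested. In bulk RNA, fewer cells of a type and less RNA per cell cannot be told apart.

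In the comparison of the groups, 2 of the 15 tested classical monocyte genes rose and 0 fell, against 2.26% and 1.06% of all genes. The median log2 difference was 1.03 over all libraries and -0.62 without KO replicate 1. In that second fit 4 were higher and 7 lower, while 49.6% of all genes were called. Cebpd, a C/EBP factor, rose 2.04-fold (edgeR adjusted p = 0.0401), and S100a4, a calcium-binding protein, 1.98-fold (adjusted p = 0.0457). Cebpd was not called after the correction for GC content and length. The summed level of the 20 classical genes was 702 to 1164.1 CPM in the KO libraries and 725.7 to 802 CPM in the WT libraries.

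**Figure D4:**
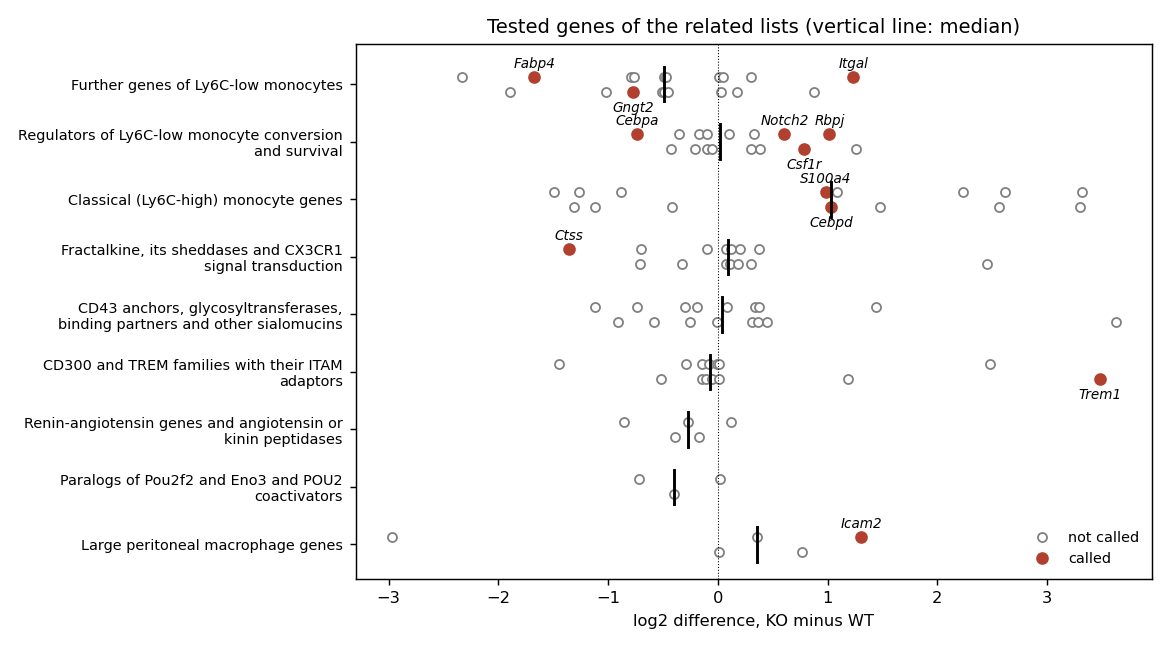
Log2 difference (KO minus WT) of the tested genes of 9 related lists, with called genes filled and named, and the median of each list as a vertical line. The further Ly6C-low genes have a median of -0.49, and 12 genes in all are called.

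Around the receptor, its ligand and signalling genes, 1 of 14 tested genes fell and 0 rose (median log2 difference 0.09), against 1.06% and 2.26% of all genes. Leaving out KO replicate 1 gave 7 higher and 5 lower, with 49.6% of all genes called. Ctss, the lysosomal protease cathepsin S, which in nerve tissue is known to release fractalkine from membranes, fell to 3731 ± 627.1 CPM in KO libraries against 9542.7 ± 356.8 CPM in WT libraries (edgeR adjusted p = 0.0196). Cx3cl1, fractalkine itself, was at 3.25, 1.44 and 1.82 CPM in the KO replicates and 0.64, 0.404 and 0.12 CPM in the WT replicates. Its KO libraries were all above the WT libraries, but it was not called (adjusted p = 0.0856), except by DESeq2 and without KO replicate 1 (adjusted p = 0.00767). The sheddases Adam10 and Adam17, which also cut fractalkine, and the G protein subunit Gnai2, through which CX3CR1 signals, were not called over all 6 libraries, with log2 differences of -0.7, 0.07 and 0.19. Without KO replicate 1, where 49.6% of all genes were called, all 3 were called by edgeR, at -1.38, -0.25 and 0.28 (adjusted p = 0.00195, 0.0407 and 0.0232). Adam17 turned direction in that fit. With the GC and length correction added to it, Adam10 stayed called (-1.51, adjusted p = 0.000415). Adam17 (0.05, adjusted p = 0.582) and Gnai2 (0.16, adjusted p = 0.0553) were then not called. Cx3cl1, Adam10, Adam17 and Gnai2 were chosen after their values were seen.

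None of the 16 tested genes that anchor, glycosylate or bind CD43 was called by edgeR over all 6 libraries (6 were by DESeq2 and 0 by limma-voom), and the median log2 difference was 0.04. Over all genes edgeR called 3.32%, DESeq2 10.8% and limma-voom 3.11%. Without KO replicate 1, 7 of the list were higher and 4 lower, while 49.6% of all genes were called. Cd34, a sialomucin of progenitors and the gene of this list with the smallest p, was at 15.5, 5.96 and 3.39 CPM in the KO replicates and 0.756, 0.866 and 0.36 CPM in the WT replicates (adjusted p = 0.0581). It was called with upper-quartile factors (adjusted p = 0.0464), with the correction for GC content and length (0.0497), without KO replicate 1 (0.000653) and by DESeq2. Msn, which encodes moesin and links CD43 to actin, was at 965.1 ± 73.3 CPM in KO and 762.4 ± 83.6 CPM in WT libraries, and Siglec1, the sialic acid-binding receptor that recognises CD43, was at 140.1, 434.2 and 466.2 CPM in the KO replicates against 116.5, 118.4 and 147.7 CPM in the WT replicates. Gcnt1, which branches the sugars of CD43, was at 83.2 ± 27.4 and 83.4 ± 12 CPM in KO and WT libraries. Msn and Siglec1 were called without KO replicate 1 (adjusted p = 0.0168 and 1.95e-05), and Siglec1 by DESeq2. Msn, Siglec1 and Gcnt1 were chosen after their values were seen.

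Of the relatives of Cd300e and Treml4, 1 of 14 tested rose and 0 fell (median -0.07), against 2.26% and 1.06% of all genes. The fit without KO replicate 1, which called 49.6% of all genes, had 3 higher and 3 lower. Trem1, an amplifier of inflammation in monocytes and neutrophils, rose to 2.26, 2.31 and 1.56 CPM in the KO replicates against 0.233, 0.0578 and 0.24 CPM in the WT replicates (edgeR adjusted p = 0.0276). Cd300lf, an inhibitory receptor chosen after its values were seen, was at 20.5, 11.8 and 14 against 7.21, 6.58 and 6.55 CPM (adjusted p = 0.0544). Without KO replicate 1 it was called (adjusted p = 0.000995), as it was by DESeq2 and with upper-quartile scaling (0.0372). Their signalling adaptor Tyrobp, also chosen after its values were seen, was at 1071.5 ± 180.9 CPM in KO and 1135.1 ± 154.6 CPM in WT libraries. None of the 5 tested renin-angiotensin genes beside Ace was called (edgeR, and 1 by DESeq2), with the smallest p for Atp6ap2, the renin receptor, at 187.8 ± 55.8 and 339.3 ± 33.5 CPM in KO and WT libraries (adjusted p = 0.0973). None of the 3 tested paralogs of Pou2f2 and Eno3 was called by edgeR either (1 by DESeq2). Eno2 was at 12.5 ± 3.85 and 20.6 ± 1.55 CPM (adjusted p = 0.136), and the main enolase Eno1, chosen after its values were seen, at 503.9 ± 25.3 and 498.5 ± 47 CPM in KO and WT libraries. At an unadjusted p under 0.05 there were 9 genes in the CD43 list, 2 in the renin-angiotensin list and 1 among the paralogs, against 2596 of all 11424 genes. Without KO replicate 1, where 49.6% of all genes were called, 1 renin-angiotensin gene was higher and 2 lower, and 2 paralogs were lower. Atp6ap2 (adjusted p = 0.000134) and Eno2 (0.000399) were among those lower, and DESeq2 called both as well.

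Of the genes of large peritoneal macrophages, 1 of 5 tested rose and 0 fell (median 0.36), against 2.26% and 1.06% of all genes. Leaving out KO replicate 1 gave 3 of 7 higher and 1 lower, with 49.6% of all genes called. Icam2, an adhesion molecule used to sort these cells, was at 3.79 ± 0.517 CPM in KO and 1.53 ± 0.207 CPM in WT libraries (edgeR adjusted p = 0.0454; not called without a filter on low counts). Timd4, a receptor of long-lived resident cells chosen after its values were seen, did not exceed 1.25 CPM in any library. Of the 12 list genes called in all, each was also called in the fit that leaves out KO replicate 1. Without KO replicate 2 or WT replicate 1 only Fabp4 stayed called, and without KO replicate 3, WT replicate 2 or WT replicate 3 none did, with all 12 in the same direction.

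Markers of other cells known to express members of the set were low for T, NK and muscle cells. The 6 T and NK cell markers in the table summed to 0.165 to 1.2 CPM in KO and 0.407 to 0.809 CPM in WT libraries. Of 7 B cell markers, Cd79a, Ms4a1, Ebf1 and Pax5 had at most 10 counts over all libraries; the list summed to 9.91 to 35.3 CPM in KO and 43 to 59 CPM in WT libraries, most of it Cd22. The 6 skeletal muscle markers, of interest for Eno3, summed to 0.782 to 1.76 and 0.52 to 3.96 CPM in KO and WT libraries. The 6 endothelial markers, of interest for Ace, summed to 74.8 to 128 and 78.3 to 105.7 CPM, nearly all of it Vwf, while Tek and Cldn5 had at most 10 counts. Myeloid progenitor markers summed to 18.4, 7.34 and 4.38 CPM in KO replicates 1, 2 and 3 and to 1.05 to 1.56 CPM in WT libraries, chiefly through Cd34, with Elane and Ms4a3 at most at 10 counts. Dendritic cell markers reached 11.6 CPM in KO replicate 1, against 0.257 and 0.573 CPM in KO replicates 2 and 3 and 1.45 to 1.62 CPM in WT libraries. Neutrophil markers summed to 303.7, 95.6 and 108.7 CPM in KO replicates 1, 2 and 3 and 143.3 to 147.4 CPM in WT libraries. The 7 platelet markers summed to 61, 19.9 and 17.6 CPM in the KO replicates and 69.3 to 117.3 CPM in the WT libraries. Of these 7, 3 fell and 0 rose in the edgeR fit, against 1.06% and 2.26% of all genes. The part of T, NK, B, muscle, endothelial, progenitor, neutrophil, dendritic and platelet transcripts in the levels of the 8 genes was not tested.

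Profiles over the 6 libraries were compared with those of 10731 tested genes averaging at least 1 CPM. The members and genes with Rik or numbered Gm symbols were left out of these. None of the 10731 was closer to Cx3cr1 than Spn was. The root mean square difference between the centred log2 CPM values of Cx3cr1 and Spn was 0.644. Both genes were chosen because they stood out in the same contrast, which makes up most of these profiles, so their closeness follows in part from the choice. Next to Cx3cr1 came Smpdl3b (0.738), a lipid-modifying phosphodiesterase, Marcksl1 (0.78), Dmpk (0.794), the scavenger receptor Marco (0.867) and the mitotic kinesin Kif14 (0.875). Spn itself had closer neighbours than Cx3cr1, with Marcksl1 at 0.397, Ifi27l2a at 0.445, Smpdl3b at 0.503, Ifitm6 at 0.555 and Dmpk at 0.596, and 10 genes in all closer than Cx3cr1. Smpdl3b, Marcksl1 and Dmpk stood in both groups of 5. Of the other members, Cd300e had 277 and Pou2f2 561 genes closer to Cx3cr1 than itself, whereas Nr4a1 had 9531.

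Marcksl1, an actin-binding substrate of protein kinase C, shared with Cx3cr1 the even level over the KO libraries, at 64.5, 61.3 and 62 CPM in KO replicates 1, 2 and 3, against 7.5, 5.31 and 4.87 CPM across the WT replicates. Smpdl3b was at 7.38, 12.8 and 12.9 CPM in the KO replicates and 0.698, 1.5 and 0.721 CPM in the WT replicates, with KO replicate 1 lowest of the KO libraries, as for Spn. Ifitm6, an interferon-induced membrane protein, was at 3.3, 6.83 and 6.67 against 0.698, 0.578 and 0.481 CPM. Marco went the other way within the KO group, at 16.1, 4 and 4.48 CPM against 0.465, 0.809 and 0.3 CPM (edgeR adjusted p = 0.0563, not called). It was called with upper-quartile factors (0.0455), with the correction for GC content and length (0.0489), without KO replicate 1 (0.000256) and by DESeq2. Kif14 was at 2.04, 9.04 and 8.55 against 0.116, 0.462 and 0.24 CPM. The likeness depends on KO replicate 1, since without it none of the 5 genes nearest to Cx3cr1 or to Spn was the same.

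**Figure D5:**
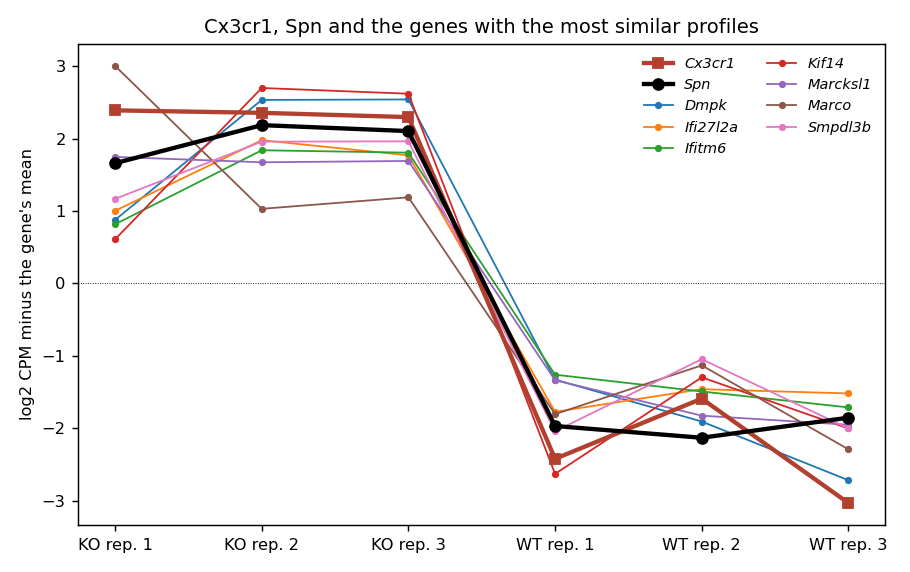
Log2 CPM minus each gene's own mean in the 3 KO and 3 WT libraries, for Cx3cr1, Spn and the 7 genes with the most similar profiles. Cx3cr1 and Marcksl1 are level over the KO libraries, Kif14 and Dmpk are lowest there in KO replicate 1, and Marco is highest in it.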

How the data were processed

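RNA sequencing measured poly(A)-selected RNA of 6 libraries, 3 labelled KO and 3 labelled WT. The deposited table gives 3 units per gene and library: estimated counts, which the authors deposited as read counts with 4.82 to 5.49% of values not whole, and TPM and FPKM, both scaled by the authors for length and depth. The deposited FPKM were used for no result. Reads were filtered with fastp 0.18.0 and GRCm39 is named, per the submitters' processing notes, with aligner, counter and strand not given in the sources used here. Coordinates in the table, however, are those of GRCm38, with 13131 of 15426 genes matched to RefSeq GRCm38.p6 at the same start. The table has a single counts column per library, with 17280855 to 18632623 counts.

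The members and gene lists were chosen with earlier results of these data known. Counts were rounded to whole numbers, filtered with filterByExpr (minimum count 10), scaled by TMM and tested over 11424 genes with edgeR 4.0.16 (quasi-likelihood, group only, Benjamini-Hochberg, threshold 0.05) in R 4.3.3; 4045 genes were not tested. The fit was tried on simulated counts with the same spread beyond counting error for every gene and no library set apart. That trial does not cover a library such as KO replicate 1. No p is given for the 8 members. Named from each list were up to 3 called genes of at least 1 CPM with the largest differences, or, with none called, the gene with the smallest p. Also named were the 5 genes most like Cx3cr1 and the 5 most like Spn in log2 CPM with a prior count of 2. Members and genes with Rik or numbered Gm symbols were left out of that search. Other genes named were chosen after their values were seen, as the text says. Alternatives were RLE and upper-quartile factors, no filter, genes averaging at least 10 CPM, DESeq2 1.42.0, limma-voom (limma 3.58.1), a replicate block, the deposited TPM and each library left out. A GC content and transcript length correction (mgcv 1.9.3, GENCODE vM21, values for 14846 genes and 8 of 8 members), with and without KO replicate 1, was added after seeing the data. Replicate pairs within a group gave chi-squares per degree of freedom of 165.3 and 135.8 with KO replicate 1 and of 6.83 to 24.7 otherwise. These values exceed counting error but do not show whether the libraries came from separate animals. Each library was counted as 1 sample.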

Additional observations from a re-analysis of the deposited data

How the results depend on the processing

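The number of called genes depended strongly on the libraries and the test. It was 379 over all 6 libraries, 229 over genes of at least 10 CPM, 1344 with DESeq2, 5794 with the GC and length correction without KO replicate 1, and 5 to 5793 when single libraries were left out (highest without KO replicate 1, lowest without WT replicate 2). With a replicate block edgeR called 0 genes (1976 at an unadjusted p under 0.05, against 2596 without the block). The labels do not state whether the numbers pair the samples. Same-numbered KO and WT libraries had correlations of deviations from the group mean of -0.162, 0.246 and -0.271, and not every library correlated best with its own number. With 3 libraries per group these deviations are tied to one another, so the correlations cannot decide whether the samples are paired. Under all settings run, the log2 difference was 4.34 to 5.11 for Cx3cr1 and 3.89 to 4.21 for Spn on the count scale. The difference of Nr4a1 ranged from -1.49 to 0.06 with single libraries left out and was -1.69 with the GC and length correction without KO replicate 1. That of Ace ranged from 0.17 to 1.49. With the same correction without KO replicate 1, Treml4 was at -0.7, Pou2f2 at 0.68, Eno3 at -0.42 and Atp6ap2, reversed, at 0.09. In the deposited TPM, Pou2f2 was at 1.19. The cause was not tested for any of these. Low counts limit Cd300e, Ace and the WT levels of Cx3cr1 and Spn.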
